A study of Homo sapiens with 36 samples.

Results

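SNARE proteins are the membrane fusion machinery of the secretory and endocytic pathways. The 34 SNARE genes described here were chosen by family membership, with earlier results of these data known, out of 19775 genes with a probe set on the array. They are represented by 95 probe sets that carry 1 gene symbol, and all 34 were bright enough to be tested together with the other genes, 15399 in all. A gene with several probe sets was read from the one that was brightest on average.

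A SNARE on a vesicle (mostly of the R class, such as the VAMPs) and SNAREs on the target membrane (the Qa, Qb and Qc classes, such as the syntaxins) wind into a bundle that pulls the membranes together. NSF and its SNAP adaptors then take the bundle apart so that the SNAREs can be used again. Most SNAREs are tail-anchored: a single membrane segment at the C-terminal end is inserted only after the protein has left the ribosome, through the GET pathway, the ER membrane complex or related routes. They carry no N-terminal signal peptide, so the signal that brings most secretory mRNAs to the ER during translation is absent. Proteins of the ER lumen, such as chaperones, do carry one, and the family therefore allows mRNAs of membrane proteins without a signal peptide to be set beside mRNAs of ER proteins with one.

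The study compared pseudopods (PS), the protrusions that a cell sends through a porous filter, with the cell bodies (CB) left on the upper side. Both were scraped off after 24 h of culture in serum-containing medium, and their RNA was measured on 36 Affymetrix HG-U133 Plus 2.0 arrays, 3 for each of 12 groups. The 6 cell lines were U87 and U251 (glioblastoma), HT1080 (fibrosarcoma), DU145 (prostate carcinoma), MDA231 (breast carcinoma) and MDA435 (long used as a breast carcinoma line, of disputed origin), with no gene altered and no drug added in any group. U87, U251 and HT1080 were kept in DMEM and the other lines in RPMI-1640, so both fractions of a line shared a medium, which was not the same for all lines. The labels do not say whether the arrays of a group came from separate cultures, so the p-values below measure the spread between these arrays, which may be technical.

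Values are linear intensities that had been scaled to a common mean on each array, so an intensity is relative to the other RNAs of the same fraction and is not an amount per cell. Changes are PS minus CB on the log2(intensity + 16) scale, where the change of a dim gene comes out smaller than its true ratio, and are given with the standard error of the limma fit. A gene is called higher or lower at a Benjamini-Hochberg adjusted p under 0.05 over all 15399 genes. Probe sets differ in how well they bind, so levels are compared between samples for 1 gene and never between genes.

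Before the results, several arrays went against the others of their line. CDH1, the epithelial cadherin, exceeded 100 intensity units on 2 of 6 MDA231 arrays (PS replicate 3 and CB replicate 2) and on 4 of 6 MDA435 arrays (PS replicates 1 and 2, CB replicates 2 and 3). On the remaining arrays of these lines it was 33.2 or lower. All 6 MDA435 arrays carried the melanocytic and neural crest genes SOX10 and S100B, at line means of 1468 and 2402. TYR, also of the melanocytic list, averaged 410 in MDA435 and 30.3 to 47.0 in the other lines, while PMEL was dim in all lines. The glial gene GFAP averaged 173 in U251 and 6.53 in U87. Each of the 36 arrays correlated best with another array of its own line, but 4 did so with an array of the other fraction: U87 PS replicate 3, MDA231 PS replicate 3, MDA231 CB replicate 2 and MDA435 PS replicate 1. Spread within groups was 0.22 to 0.27 log2 units in the U251, HT1080 and DU145 groups and the U87 cell bodies, and 0.37 to 0.43 in the MDA231 and MDA435 groups and the U87 pseudopods. The pseudopod arrays also held less of the ribosomal RNA precursor RNA45SN5 (599 ± 371 in CB and 60.0 ± 92.8 in PS, SD, n = 18 each), a nucleolar transcript. U87 PS replicate 3 was an exception with 408, against 85.2 and 15.3 on the other U87 pseudopod arrays and 487 to 646 on the U87 cell body arrays. MALAT1, another nuclear RNA, fell much less, from 4239 ± 1149 in CB to 2777 ± 1047 in PS (0.69 ± 0.14 log2 units, SE). Its PS and CB arrays overlapped in 3 lines, and it was called in 0 single lines.

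SNARE mRNAs as a family were somewhat richer in pseudopods than in cell bodies. Averaged over the 6 lines, 24 of the 34 genes rose, 1 fell (VAMP1) and 9 were not called (limma, adjusted p under 0.05). Over all genes tested, 29.5% rose and 20.8% fell, against 70.6% and 2.9% of the SNARE genes. Rises made up 58.7% of the calls over all genes, and 71.5% when arrays were set to equal medians. The median SNARE change was 0.29, against 0.05 over all genes, and the changes were small: they ran from -0.43 to 0.63. Called changes of at least 2-fold numbered 0 among the SNARE genes, and 7 rises and 666 falls among all 15399 genes. With the 6 line differences taken as the units, 26 SNARE genes rose and 1 fell, where the same fit called 29% of all genes higher and 19.3% lower. Of 204 changes (34 genes in 6 lines), 184 were above 0, and 24 genes were higher in all 6 lines, a pattern that 27.8% of all genes showed. In fractions of a population, less RNA per cell and fewer cells of a kind cannot be told apart. The adjusted p-values of 19 of the 25 called genes stayed under the threshold in each of the 12 other ways of processing in which they were tested. VAMP7, among these, was tested in 11, as its only probe set is of a kind left out in 1 of them.

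**Figure D1:**
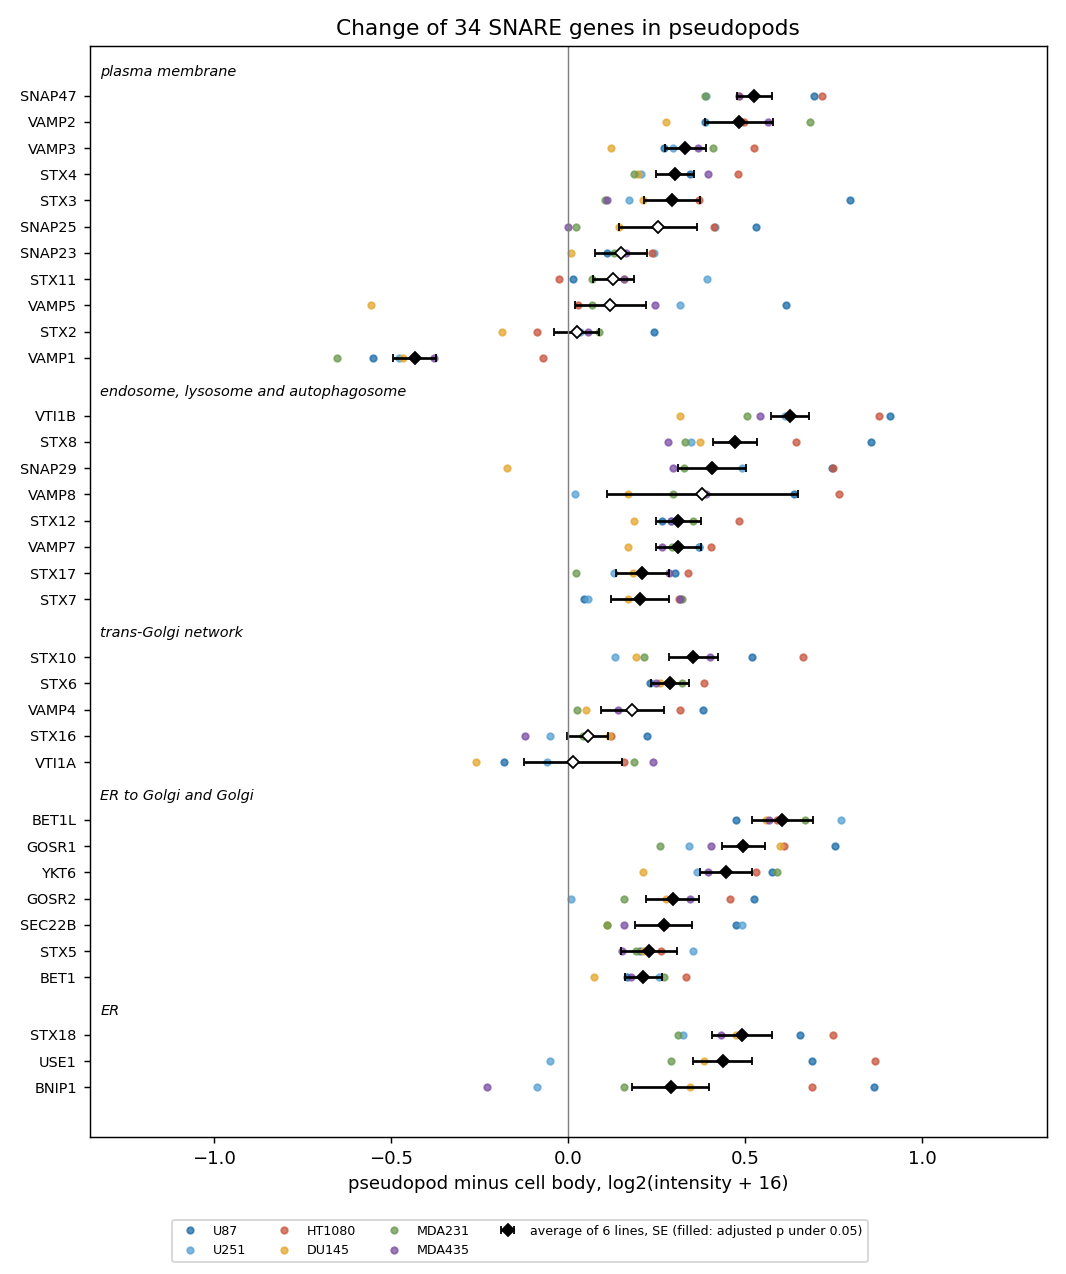
Change of each of the 34 SNARE genes between pseudopods and cell bodies, in log2(intensity + 16) units, averaged over 6 lines; diamonds with bars are the average and its standard error (filled at an adjusted p under 0.05), and coloured points are the 6 lines. Genes are grouped by trafficking site: VTI1B has the highest average (0.63), and VAMP1 (-0.43) has the only average below 0 among the 34 genes.

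SNAREs of endosomes, lysosomes and autophagosomes had 7 of 8 members higher, 0 lower and a median of 0.35. VTI1B, the Qb SNARE of the late endosomal bundle, had the largest rise of the family. Its 18 CB arrays had intensities of 419 (lowest), 582 (median) and 850.0 (highest), and its 18 PS arrays had 639, 855 and 1808. The ranges over all lines overlapped, but within each of the 6 lines every PS array lay above every CB array. The averaged change was 0.63 ± 0.05 (SE; limma adjusted p = 7.48e-11), or 1.54-fold. In U87 the CB arrays had 779, 833 and 850.0 and the PS arrays 1808, 1737 and 1193. In HT1080 they had 598, 508 and 591 in CB against 1084, 1006 and 1062 in PS. In U251 they had 507, 573 and 606 in CB against 832, 887 and 877 in PS. The MDA231 arrays had 610, 595 and 494 in CB and 892, 769.5 and 768 in PS. Those of MDA435 had 470, 419 and 469 in CB and 718, 639 and 644 in PS. In DU145, where the change was not called, the CB arrays had 572, 660.3 and 561 and the PS arrays 697, 798 and 745. The other 2 VTI1B probe sets also rose, by 0.47 and 0.38.

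VTI1B works in late endosome fusion with the Qa SNARE STX7, the Qc SNARE STX8 and the R SNARE VAMP8. STX8 rose by 0.47 ± 0.06 on average (adjusted p = 3.15e-07, limma). Its U87 arrays had 305, 378 and 356 in CB and 677, 708 and 539 in PS, which do not overlap. STX7 rose by 0.20 ± 0.08 (adjusted p = 0.0384), close to the threshold. Its call was lost in 17 of 36 fits that left out 1 array, at least 1 of them from each line and most strongly MDA435 CB replicate 3 (0.17, adjusted p = 0.0741), without MDA231 and MDA435 (0.15, adjusted p = 0.0958) and for the mean of its probe sets (0.05, adjusted p = 0.506). VAMP8 was not called in the averaged fit (0.38 ± 0.27, adjusted p = 0.257), where its MDA435 arrays were widely spread. It was called higher without the CDH1-high arrays (0.33, adjusted p = 0.0223), without MDA231 and MDA435 (0.40, adjusted p = 0.0126), without MDA435 PS replicate 3 (0.58, adjusted p = 0.0192) and with lines as units (adjusted p = 0.0118).

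The autophagosome SNAREs STX17 and SNAP29, which fuse autophagosomes with lysosomes, rose by 0.21 ± 0.07 and 0.41 ± 0.10 (adjusted p = 0.0182 and 8e-04, limma). SNAP29 was called in U87 (0.74 ± 0.24) and HT1080 (0.75 ± 0.24), but not on its unmarked probe sets (0.31 and 0.32, adjusted p = 0.409 and 0.365; probe sets whose names end in _s_at or _x_at are marked as possibly cross-hybridising). The U87 call was also lost without U87 PS replicate 2 or CB replicate 2, and the HT1080 call without HT1080 PS or CB replicate 1. SNAP29 was below 0 in DU145, at -0.17 ± 0.24 (adjusted p = 0.781). VAMP7, an R SNARE of lysosomes and of lysosome exocytosis, rose by 0.31 ± 0.06 with PS arrays above CB arrays in 4 lines. STX12 (also called STX13), a Qa SNARE of recycling endosomes, rose by 0.31 ± 0.06, and this call was lost when marked probe sets were left out (0.20, adjusted p = 0.136).

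All 7 SNAREs of ER to Golgi and intra-Golgi transport rose, with a median of 0.30. The Qa SNARE STX5 forms the intra-Golgi bundle with GOSR1 (Qb), BET1L (Qc) and YKT6 (R). BET1L had CB intensities of 106, 256 and 465 (lowest, median, highest of 18) and PS intensities of 256, 396 and 717. PS arrays lay above CB arrays in 5 lines, with MDA435 as the exception (CB 256, 294 and 375, PS 638, 404 and 374). Its change was 0.60 ± 0.09 (adjusted p = 8.73e-07, limma), the second largest of the family. In U251, where it was called at 0.77 ± 0.21 (but not without U251 PS replicate 1 or CB replicate 3), the CB arrays had 187, 208 and 106 and the PS arrays 313, 289 and 258.

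GOSR1 rose by 0.49 ± 0.06 (adjusted p = 5.62e-08). Its CB arrays had 500.1, 603 and 683 and its PS arrays 668, 809 and 1195 (lowest, median, highest), and the fractions did not overlap in any line but MDA231. In DU145, 1 of the lines with few calls, GOSR1 was among the called genes, with 566, 546 and 618 in CB against 959, 960 and 741 in PS (0.60 ± 0.15, adjusted p = 0.0235). That call was lost on the unmarked probe sets (0.15, adjusted p = 0.721) and without DU145 PS or CB replicates 1 or 2. YKT6, an R SNARE held to membranes by lipid and not by a tail anchor, rose by 0.44 ± 0.07 (adjusted p = 8.64e-06). In MDA231 it had 338, 205 and 309 in CB and 455, 499.8 and 340.1 in PS (0.59 ± 0.18, adjusted p = 0.0469), where the lowest PS array was barely above the highest CB array. This call was lost in 26 of 36 fits without 1 array (adjusted p up to 0.224), with a pseudocount of 1 (0.0571) and with no filter (0.0505).

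The ER to Golgi bundle joins STX5 to GOSR2 (Qb), BET1 (Qc) and SEC22B (R). In this bundle STX5 rose by 0.23 ± 0.08, GOSR2 by 0.30 ± 0.07, BET1 by 0.21 ± 0.05 and SEC22B by 0.27 ± 0.08 (adjusted p = 0.0169, 0.0015, 0.00101 and 0.0064, limma). STX5 was higher in all 6 lines, but its arrays overlapped in every line, and the call was lost without the CDH1-high arrays (0.21, adjusted p = 0.0656).

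The 3 SNAREs of the ER itself, which receive vesicles returning from the Golgi, also rose. STX18, the Qa member, had CB intensities of 148, 505 and 744 (lowest, median, highest) and PS intensities of 253, 718 and 1062. The fractions overlapped within 4 of the 6 lines. Its change was 0.49 ± 0.09 (adjusted p = 1.78e-05, limma). USE1, the Qc member, rose by 0.44 ± 0.08 (adjusted p = 6.47e-05). Its largest line change was in HT1080, with 157, 133 and 138 in CB and 247, 289 and 282 in PS (0.87 ± 0.20), while in U251 it was -0.05 ± 0.20. BNIP1, the Qb member, rose by 0.29 ± 0.11 (adjusted p = 0.0269) but not with lines as units (adjusted p = 0.117), and lost its call without MDA435 PS replicate 2 (adjusted p = 0.0526) or MDA231 CB replicate 1 (0.0504). Without the CDH1-high arrays its value was 0.44 (adjusted p = 0.000206).

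Of the trans-Golgi network SNAREs, 2 of 5 rose (29.5% of all genes did so) and 0 fell. Both were Qc SNAREs: STX10 rose by 0.35 ± 0.07 (adjusted p = 8.56e-05) and STX6, which serves traffic between endosomes and the Golgi, by 0.29 ± 0.05 (adjusted p = 4.29e-05, limma). The usual partners of STX6 were not called: the values were 0.06 ± 0.06 for the Qa SNARE STX16, 0.01 ± 0.14 for the Qb SNARE VTI1A and 0.18 ± 0.09 for the R SNARE VAMP4 (adjusted p = 0.461, 0.943 and 0.0911). VAMP4 was called higher in 5 of the 12 other ways of processing (0.25 with averaged probe sets, adjusted p = 0.00149, and 0.24 without the CDH1-high arrays, adjusted p = 0.00605), without MDA231 PS replicate 3 (0.25, adjusted p = 0.00169) and with lines as units (adjusted p = 0.0494). Its other 2 probe sets rose by 0.30 and 0.28. The VTI1A probe set used had the widest error of its 6: another one rose by 0.45 (adjusted p = 3.81e-06), and 2 more above the brightness limit had 0.21 and 0.15 and were not called. Another STX16 probe set was called lower (-0.21, adjusted p = 0.0392, limma), and the rest were not called.

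Among the plasma membrane SNAREs the values were mixed, with a median of 0.25. Of 11 genes 5 were higher and 1 lower, as were 29.5% and 20.8% of all genes. SNAP47, a SNAP25-like protein without a membrane anchor, had CB intensities of 277, 399 and 532 (lowest, median, highest) and PS intensities of 405, 599 and 737. In each of the 6 lines every PS array lay above every CB array. Its change was 0.53 ± 0.05 (adjusted p = 5.66e-10, limma). In DU145 the arrays had 354, 362 and 379.6 in CB and 525, 509 and 517 in PS, and in MDA435 they had 277, 320.0 and 356 in CB and 460.0, 484 and 405 in PS. SNAP47 is not confined to the plasma membrane in cells, and its placement here is a convention.

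VAMP2 and VAMP3, R SNAREs of secretory and recycling vesicles, rose by 0.48 ± 0.10 and 0.33 ± 0.06 (adjusted p = 0.000108 and 1.74e-05, limma). VAMP2 had 43.9, 73.8 and 225 in CB and 57.5, 133 and 298 in PS (lowest, median, highest), with PS arrays above CB arrays in 4 lines. Its call was lost on the unmarked probe set (0.19, adjusted p = 0.0804). The Qa SNAREs STX4 and STX3 rose by 0.30 ± 0.05 and 0.29 ± 0.08 (adjusted p = 3.18e-05 and 0.00224), and STX4 lost its call on the unmarked probe set (0.25, adjusted p = 0.0854). Values for the plasma membrane members that were not called were 0.25 ± 0.11 for SNAP25 (adjusted p = 0.0573), 0.15 ± 0.07 for SNAP23 (0.0931), 0.13 ± 0.06 for STX11 (0.0654), 0.12 ± 0.10 for VAMP5 (0.338) and 0.03 ± 0.06 for STX2 (0.772). With equal array medians STX11 (0.22, adjusted p = 0.000745), SNAP23 (0.25, adjusted p = 0.0184) and SNAP25 (0.35, adjusted p = 0.0041) were called higher. A dim SNAP23 probe set (mean 31.2) went the other way, at -0.57 (adjusted p = 2.39e-07, limma), and the rest were not called.

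VAMP1, an R SNARE closely related to VAMP2, was the exception. Its 18 CB arrays had 88.6, 121 and 262 (lowest, median, highest) and its 18 PS arrays 51.6, 96.2 and 187. PS arrays lay below CB arrays without overlap in 4 lines and overlapped in U87 and HT1080. The averaged change was -0.43 ± 0.06 (adjusted p = 6.55e-07, limma), and 17.1% of all genes shared its pattern of being lower in all 6 lines. In MDA231 it had 95.2, 117 and 110.0 in CB and 51.6, 75.4 and 61.6 in PS (-0.65 ± 0.15). In U251 it had 168, 158 and 147 in CB and 106, 113 and 108 in PS (-0.48 ± 0.15). These calls, and that in U87, were lost when the 3 probe sets were averaged (-0.25 in MDA231, adjusted p = 0.222, -0.34 in U251, 0.0585, and -0.31 in U87, 0.0651). The MDA231 call was also lost without MDA231 PS replicate 1, and the U251 call without any U251 array but CB replicate 3. In HT1080 the value was -0.07 ± 0.15. A second, dimmer VAMP1 probe set also fell, by 0.51, while the last one, below the brightness limit, had a value of 0.20.

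**Figure D2:**
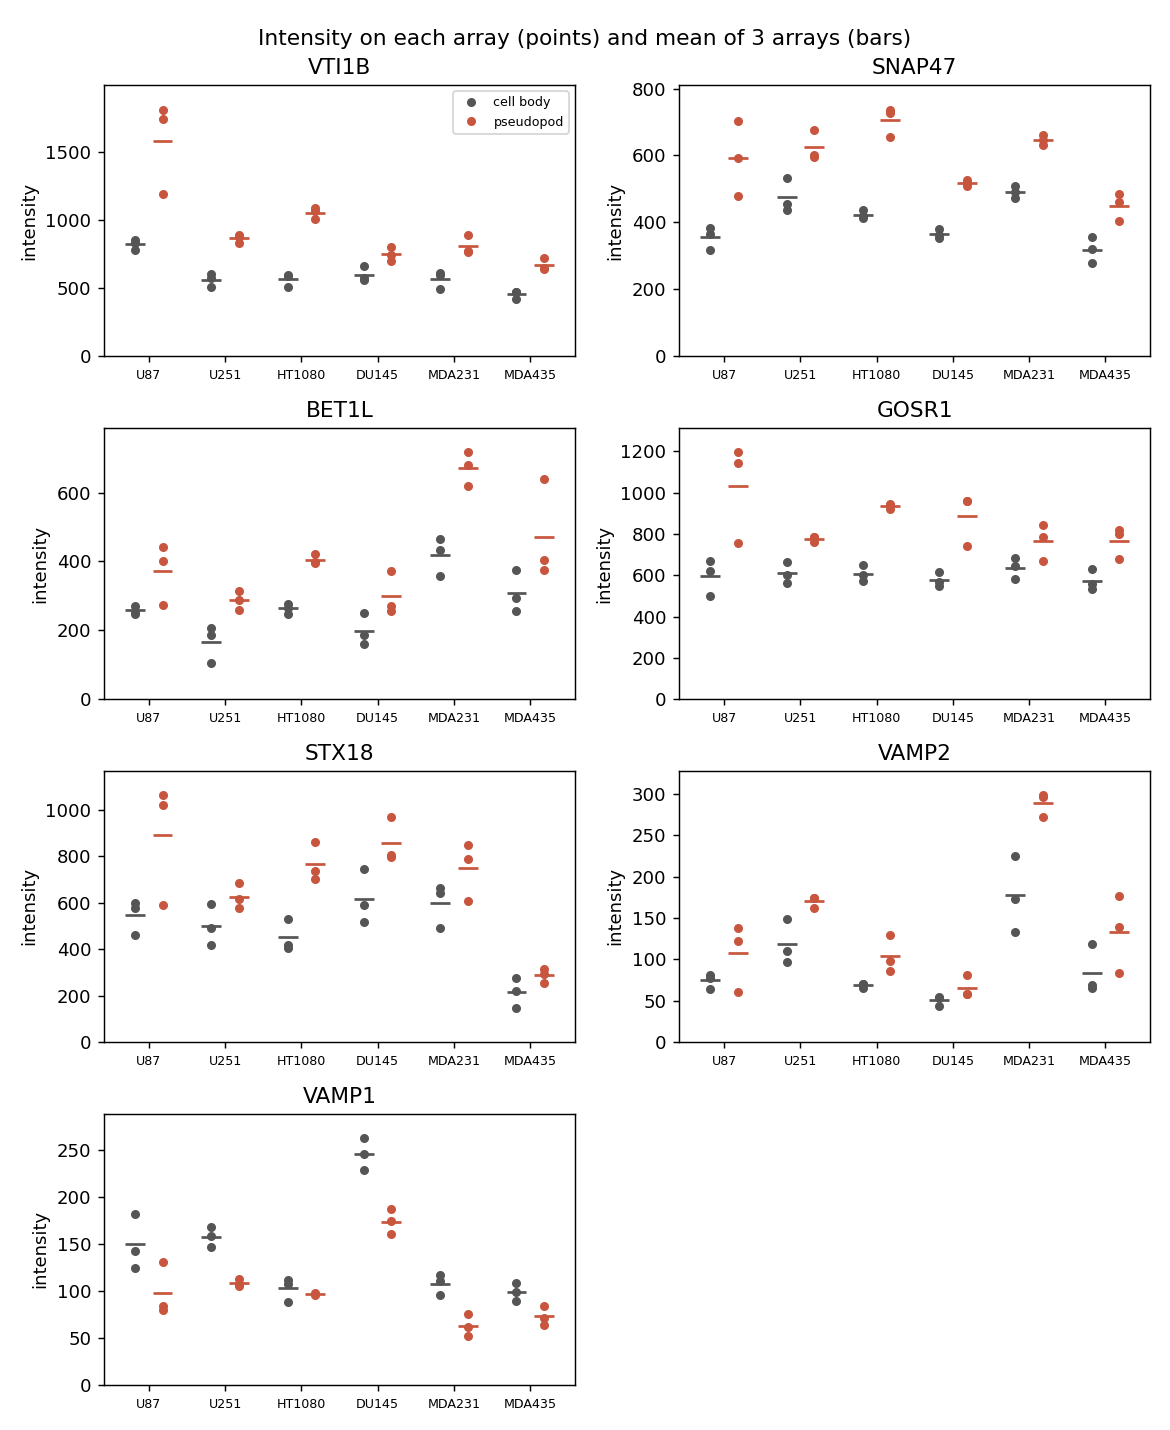
Intensity on each array (linear axes from 0) of the 7 SNARE genes described in full, in the cell body and pseudopod fractions of the 6 lines, 3 arrays per group with their mean as a short line. Pseudopod points lie above cell body points in every line for VTI1B and SNAP47, and below or overlapping them in every line for VAMP1.

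By SNARE class, the share higher was 6 of 6 Qc, 4 of 5 Qb, 7 of 10 Qa and 5 of 9 R genes. Of the Qbc genes (the SNAP25-like proteins that give both helices) 2 of 4 were higher. Among all genes the share was 29.5%. By anchor, among the 28 genes with a C-terminal membrane segment 21 rose and 1 fell, with a median of 0.29, and among the 6 held by lipid or without an anchor (SNAP23, SNAP25, SNAP29, SNAP47, YKT6 and STX11) 3 rose and 0 fell, with a median of 0.33. The difference between these counts was not tested. Averaging the probe sets of a gene brought several called changes more than 1.5 times nearer to 0 while keeping the call: STX6 to 0.10, STX8 to 0.28, GOSR1 to 0.30 and VAMP1 to -0.25. Without marked probe sets GOSR1 had 0.27 and STX17 0.35, both still called. Single probe sets were called in a separate limma fit, adjusted over all 54593 probe sets and not over the genes. In it, of 53 member probe sets above the brightness limit that were not the ones used, 28 rose, 4 fell and 21 were not called. The adjusted p-values given above for other probe sets of STX16, SNAP23 and VTI1A come from that fit.

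mRNAs of ER folding proteins behaved in the opposite way. All 34 tested ER chaperones and folding enzymes fell (20.8% of all genes did so), with a median of -1.07. Of these, 23 fell by at least 2-fold, as did 666 of all 15399 genes. SERPINH1, the collagen chaperone, fell by 1.83 ± 0.12, from 1136 ± 409 in CB to 297 ± 89.4 in PS (SD, n = 18 each; limma adjusted p = 1.22e-12). HSPA13, an ER-associated HSP70 protein, fell by 1.78 ± 0.17, and UGGT2, a glycoprotein folding sensor, by 1.53 ± 0.11. The smallest fall of the list, that of TXNDC11 (0.31 ± 0.08), compares with the largest SNARE fall of 0.43. The 9 tested p24 family and related cargo receptors, which span the ER and Golgi membranes and have signal peptides, all fell too, with a median of -0.82 (LMAN2 by 1.23, TMED4 by 1.06 and TMED5 by 0.97). Of the SNARE genes, VAMP1 alone had a value (-0.43) within the range of the ER list, which ran from -1.83 to -0.31.

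Other tail-anchored proteins were close to the SNARE genes. Of 38 tested, 29 rose and 1 fell (76.3% and 2.6%, against 29.5% and 20.8% of all genes), with a median of 0.30. FIS1 and MFF, which serve fission at the mitochondrial outer membrane, rose by 0.61 ± 0.07 and 0.55 ± 0.07 (adjusted p = 1.31e-08 and 1e-07, limma). SEC61B, a tail-anchored subunit of the ER translocon, rose by 0.29 ± 0.06 (adjusted p = 0.000254) and was named after its value was seen. HMOX2, a haem oxygenase of the ER membrane, had the largest rise (0.82 ± 0.10), but its unmarked probe set gave 0.12 (adjusted p = 0.184). GOLGB1, a large Golgi tether with a C-terminal anchor, fell by 0.27 ± 0.07, and this call was lost with equal array medians (-0.17, adjusted p = 0.0798). Leaving out marked probe sets lowered the number of rises from 29 to 19 in this list and from 24 to 19 among the SNARE genes. Genes without a bright enough unmarked probe set drop out of these counts.

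**Figure D3:**
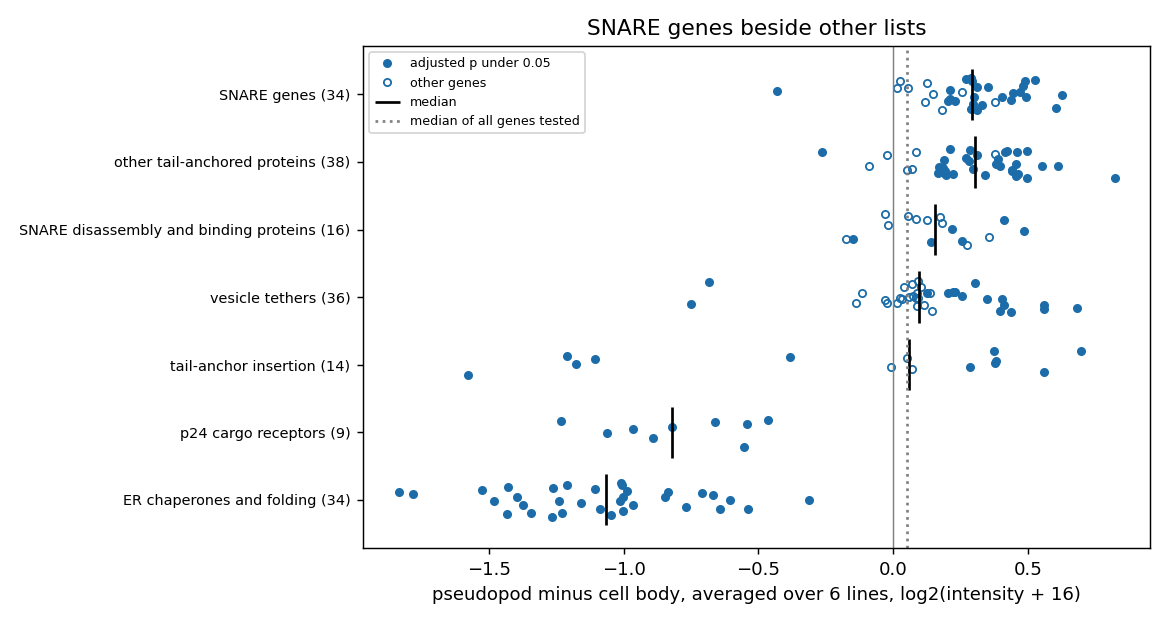
Averaged PS minus CB change, in log2(intensity + 16) units, of each tested gene of the SNARE family and of 6 other gene lists; each point is 1 gene and the line its list's median. SNARE genes (median 0.29) and other tail-anchored proteins (0.30) lie mostly above 0, and all ER chaperones and folding enzymes (median -1.07) and p24 cargo receptors (-0.82) lie below 0.

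Of 14 tested genes of the machinery that inserts tail anchors 6 rose and 5 fell, with a median of 0.06. That was 42.9% and 35.7%, against 29.5% and 20.8% of all genes. Changes of at least 2-fold were 0 rises and 4 falls, against 7 and 666 among all 15399 genes. Among ER membrane complex genes, EMC1 fell by 1.58 ± 0.15, EMC3 by 1.21 ± 0.10, EMC10 by 1.18 ± 0.16 and EMC7 by 1.11 ± 0.09. EMC1, EMC7 and EMC10 are made with a signal peptide, and EMC3 spans the membrane. EMC8 and EMC2, cytosolic subunits of the same complex, rose by 0.70 ± 0.10 and 0.38 ± 0.06 (adjusted p = 5.38e-07 and 1.34e-06, limma). The small membrane subunits EMC4 and EMC6 went in opposite directions, with -0.38 ± 0.05 and 0.38 ± 0.06 (adjusted p = 4.62e-07 and 2.74e-06). In the GET pathway, SGTA, the first cytosolic chaperone, rose by 0.56 ± 0.08 and GET3, the targeting ATPase, by 0.38 ± 0.08. The membrane receptors GET1 and CAMLG had -0.01 ± 0.05 and 0.05 ± 0.06 (adjusted p = 0.905 and 0.505, limma). BAG6 and GET4, of the same pathway, had 0.29 ± 0.09 and 0.07 ± 0.06 (adjusted p = 0.00783 and 0.398), so GET4 was not called either. EMC4, EMC6, EMC7, GET1, GET3, GET4, BAG6 and CAMLG were chosen after the values were seen.

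Proteins that bind SNAREs or take them apart had smaller values. Of 16 tested disassembly and binding proteins 5 rose (31.2%, near the 29.5% of all genes) and 1 fell, with a median of 0.16. SNAPIN, a SNAP25-binding protein, rose by 0.49 ± 0.07, NAPA (alpha-SNAP) by 0.41 ± 0.08 and NSF, the ATPase that takes SNARE bundles apart, by 0.25 ± 0.05 (adjusted p = 1.56e-06, 4.24e-05 and 7.05e-05, limma). VPS33B, a Sec1/Munc18-like protein, fell by 0.15 ± 0.06 (adjusted p = 0.0344), with -0.05 at equal array medians (adjusted p = 0.464). Its call was lost in 4 of the 12 other ways of processing, in 13 of 36 fits without 1 array and with lines as units (adjusted p = 0.0868). Of 36 vesicle tethers, which hold a vesicle before SNAREs pair, 14 rose (38.9%) and 2 fell, with a median of 0.10. TRAPPC1, TRAPPC5 and VPS51 rose by 0.68 ± 0.07, 0.56 ± 0.09 and 0.56 ± 0.06. EEA1, the early endosome tether, fell by 0.75 ± 0.08 and NBAS, a subunit of the tether that works with STX18, by 0.68 ± 0.10.

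Within single lines, 3 arrays against 3, few SNARE genes were called outside U87 and HT1080. In HT1080 14 rose and 0 fell (12.8% and 12% of all genes did so). In U87 12 rose and 1 fell (11.7% and 11.8% of all genes). In U251 the counts were 3 and 1 (5.36% and 9.33% of all genes), and in MDA231 2 and 1 (1.18% and 4.9%). DU145 had 2 higher and 0 lower (0.825% and 2.16% of all genes), and so did MDA435 (2.96% and 8.81%). In total there were 38 calls on 18 genes, of which 35 were rises and 3 were falls of VAMP1 (U87, U251 and MDA231), and 34 had PS and CB arrays that did not overlap. VTI1B and SNAP47 were called higher in 5 lines each and GOSR1 and YKT6 in 3. Without marked probe sets VTI1B lost 4 of its line calls (0.38 in U87, 0.49 in U251, 0.38 in HT1080 and 0.52 in MDA231, adjusted p = 0.17, 0.0848, 0.154 and 0.0926), and GOSR1 lost all 3 (0.46 in U87, 0.27 in HT1080 and 0.15 in DU145, adjusted p = 0.0521, 0.28 and 0.721). Leaving out the CDH1-high arrays left 1 PS and 1 CB array of MDA435, so only the values are given there. They were 0.44 for VTI1B and 0.52 for SNAP47, against 0.54 and 0.48 with all MDA435 arrays. SNAP47 lost its MDA435 call without MDA435 PS replicate 2 or CB replicate 1. The DU145 call of SNAP47 was lost without each of the 6 DU145 arrays in turn.

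These line counts rest on single arrays. Counted in both directions they were 13 in U87, 4 in U251, 14 in HT1080, 2 in DU145, 3 in MDA231 and 2 in MDA435, where 23.5%, 14.7%, 24.9%, 2.98%, 6.07% and 11.8% of all genes were called. Leaving out PS replicates 1 or 2 or CB replicate 1 of U87 lowered its count from 13 to 8, 5 and 7. HT1080 fell from 14 to 9 without its PS replicate 1, and U251 from 4 to 2 without its PS replicates 2 or 3 or CB replicate 2. DU145 went from 2 to 0 or 1 without any single array of its own. MDA231 went from 3 to 0 without PS replicate 1, to 1 without PS replicate 2 or CB replicate 3, and to 6 without PS replicate 3 or U87 PS replicate 3. MDA435 went from 2 to 5 without its PS replicate 1 or U87 PS replicate 3.

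The median SNARE change was above that of all genes in each line: 0.43 against 0.04 in U87, 0.29 against 0.07 in U251, 0.43 against 0.09 in HT1080, 0.18 against 0.04 in DU145, 0.24 against 0.01 in MDA231 and 0.28 against 0.06 in MDA435. The lines with the larger SNARE medians, U87 and HT1080, also had the lowest ER medians (-1.53 and -1.52), and DU145 had the smallest of both (-0.66 for the ER list). PS arrays lay wholly above CB arrays for 25 SNARE genes in HT1080 (29.5% of all genes did so), 17 in U87 (17%), 15 in U251 (22%), 12 in DU145 (16.7%), 9 in MDA435 (12.3%) and 7 in MDA231 (9.11%).

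**Figure D4:**
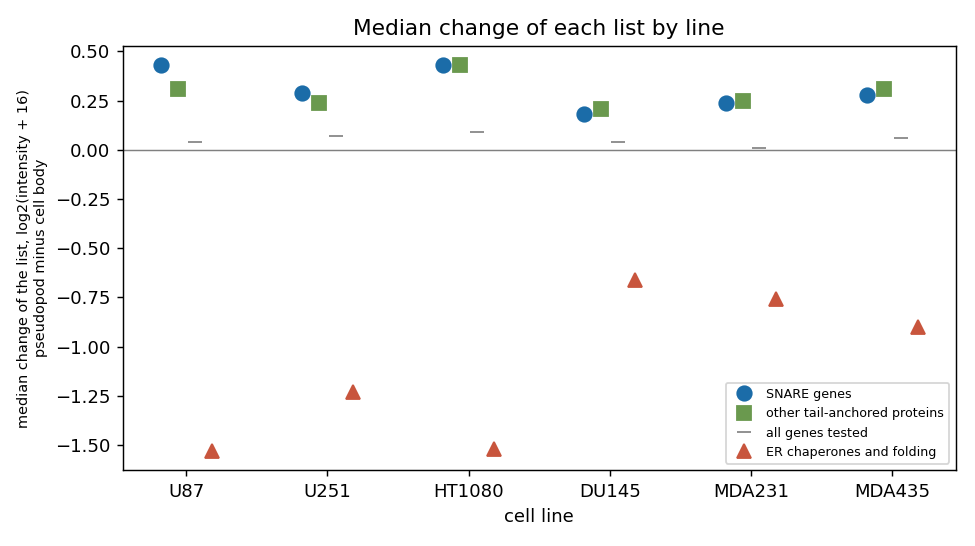
Median PS minus CB change, in log2(intensity + 16) units, of 4 sets of genes in each of the 6 lines. SNARE genes (0.18 to 0.43) and other tail-anchored proteins lie above the median of all genes in every line, and ER chaperones and folding enzymes (-1.53 to -0.66) below it.

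No SNARE gene was shown to change differently between lines. A moderated F test comparing the changes of the 6 lines called 0 of 34 genes, against 1.18% of all genes, and the lowest adjusted p was 0.364 (limma). At an unadjusted p under 0.05 there were 3 (VTI1B, BNIP1 and VAMP5), 8.82% of the family against 10% of all genes. Without U87 PS replicate 3 the test called 1. With arrays weighted by their quality it called 4: USE1 (adjusted p = 0.00867), VTI1B (0.0183), VAMP5 (0.0334) and BNIP1 (0.0422). In simulated data this test recovered 0% of 100 genes changed 1.5-fold in U87 alone. Few genes were changed there, against 23.5% called in U87 here, so the power of the test in these data is not known from it.

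A few SNARE genes had very different levels in the 6 lines, in both fractions. Line means (6 arrays) of VAMP8, an R SNARE of exocytosis and late endosomes, ran from 12.9 in U87, 15.6 in U251 and 42.3 in HT1080 through 156 in MDA435 to 939 in DU145 and 1716 in MDA231. U87 and U251 were dim throughout (33.5 or lower), and their arrays overlapped. In MDA435, VAMP8 split the arrays: PS had 362, 187 and 6.5 and CB 5.5, 114 and 259.9, with the high values on the arrays where CDH1 was high. On these arrays 4 of 4 epithelial markers (CDH1, EPCAM, KRT18, KRT19) were above the other arrays of the same fraction, and the sum of the markers ran from 1328 to 9299 in PS and from 1014 to 10097 in CB. In MDA231 the CDH1-high arrays had the lowest VAMP8 of their fractions (1414 in PS and 1232 in CB), with 3 of 4 markers above the others and sums of 5877 to 9904 in PS and 4780.1 to 9733 in CB. The averaged VAMP8 change was 0.33 without the CDH1-high arrays, against 0.38 with them.

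SNAP25, best known from neuronal exocytosis, had line means of 711 in HT1080, 379 in U87, 157 in DU145, 50.4 in U251, 10.8 in MDA435 and 4.43 in MDA231. In 5 of the 12 other ways of processing, SNAP25 was called higher in pseudopods. Its probe sets disagreed in direction, however: the probe set used gave 0.25, and the 1 unmarked probe set, much dimmer, gave -0.32 (adjusted p = 0.00377 when used in its place). VAMP5, described in muscle and other non-neuronal cells, had means of 202 in U87, 193 in MDA435 and 97.2 in U251 and of 14.9 or lower in the other lines. SEC22B averaged 161 in DU145 and 1003 to 1862 elsewhere, and its second probe set gave 67.0 in DU145, within its range in the other lines (57.6 to 202). STX18 averaged 250.9 in MDA435 and 563 to 736 in the other lines. STX11, a Qa SNARE of cytotoxic lymphocytes, was dim everywhere, with line means of 11.1 to 28.4.

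**Figure D5:**
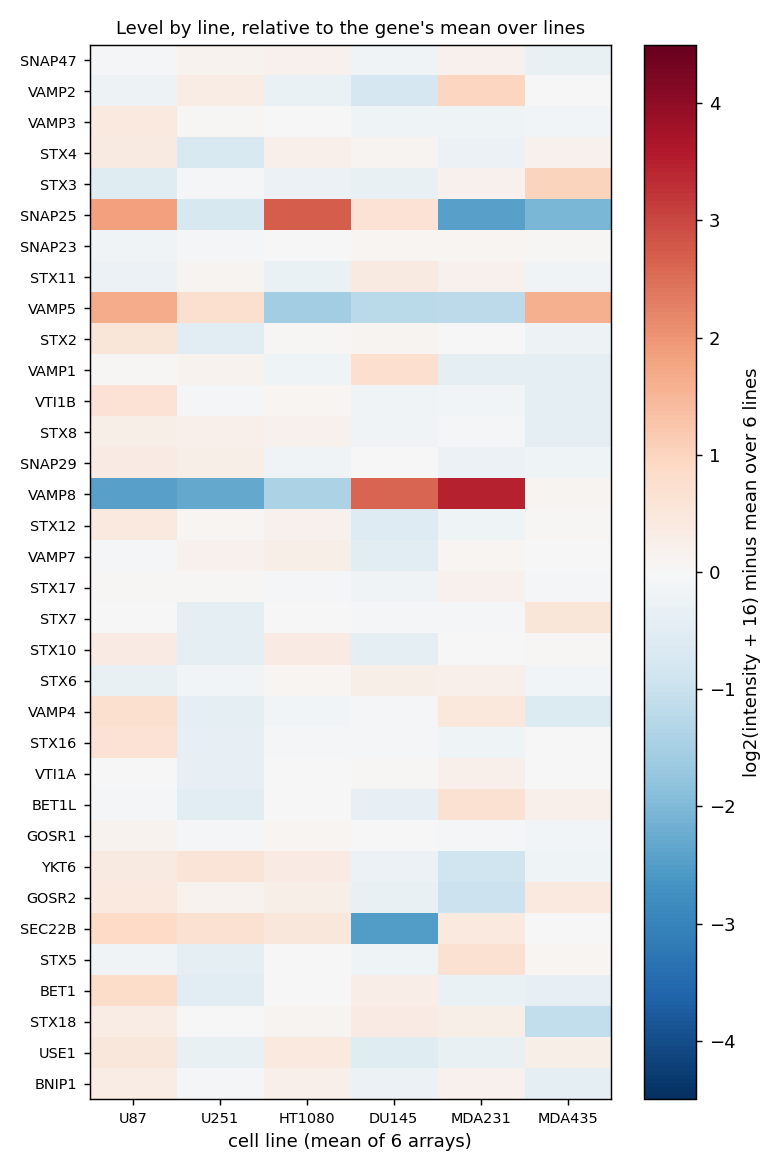
Mean level of each SNARE gene in each line (6 arrays, both fractions), as log2(intensity + 16) minus that gene's mean over the 6 lines. VAMP8 and SNAP25 show the strongest colours, followed by VAMP5 and by the low SEC22B of DU145.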

How the data were processed

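RNA of pseudopod and cell body fractions was measured on 36 arrays of 12 groups (6 lines, 3 arrays per line and fraction), from 100 ng of total RNA per the labels' protocols. The deposited values are linear intensity values of 54593 probe sets. Array means, with 2% of probe sets left out at each end, lie between 149.18 and 149.59, and array medians between 18.2 and 30.6. Per the submitters' processing notes RMA and Partek were used, with no role or version named. RMA gives log2 values, which these deposited values are not, their program being not given in the sources used here. No depth applies to arrays, and their number limits the precision.

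From the deposited intensity, log2(intensity + 16) was computed. Of the probe sets, 41074 carried 1 gene symbol in the platform annotation, 1798 several and 11721 none. Symbols were brought up to date through the RefSeq gene table of GRCh38.p14 for 41020 of them. Each of 19775 genes was read from its probe set with the highest mean. The 15399 genes with at least 1 group mean of 24.4 (the median intensity) or more were tested.

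limma 3.58.1 (R 4.3.3) was fitted to 12 group means (24 residual degrees of freedom). Contrasts were PS minus CB averaged over lines and in each line, with a moderated F test of differences between lines and a fit with the 6 line differences as units. Figures were drawn with matplotlib 3.10.9 in Python 3.11.15.

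In simulated data with the measured means and spreads of 15399 genes, the averaged contrast recovered 44% of 1.25-fold and 90% of 1.5-fold changes, with 6 false calls. U87 alone gave 0% and 11%, with 2 false calls, the lines as units 17% and 73%, with 5, and the F test for a change in U87 alone 0% and 0%, with 0. Each simulated gene had 1 spread in all 12 groups, while the measured spread within groups ran from 0.22 to 0.43. Its change was the same in every changed line. Only 100 genes per fold size were changed, far fewer than were called in the data themselves. These shares may therefore differ from the power reached there.

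Every member is accounted for. Array values are printed for the called members with the largest averaged changes (up to 6 per direction) and the largest non-overlapping changes in each line (up to 2 per direction). From each other list up to 3 called genes per direction are named. The members, lists and rules were chosen with earlier results of these data known. Alternatives were the pseudocount (1 or 64), quantile normalization, equal array medians, no filter or a filter at 100, the mean of all probe sets, probe sets without the marked kinds, array weights, a replicate block, leaving out CDH1-high arrays or MDA231 and MDA435, and leaving out each array. Sequences are not shown.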

Additional observations from a re-analysis of the deposited data

How the results depend on the processing

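Of 162 recomputed counts and medians 24 moved, mostly counts within single lines. A count was taken as moved when it changed by more than 1.5-fold, or between 0 and another number. For a median, a shift of at least the SD of the line medians was required. Smaller shifts were not counted, such as that from 14 to 20 in HT1080 with array weights. None of the 25 called members changed sign on the averaged contrast, and 23 kept their call without each single array. Within lines, 27 of 38 calls were lost in at least 1 alternative and 0 reversed. The count of called members in MDA231 (3 as reported) was 6 with a pseudocount of 64, with quantile normalization and with equal array medians, 5 with a filter at 100 or when the probe sets of a gene were averaged, and 12 with array weights. In MDA435 (2 as reported) it was 4 with a pseudocount of 64, 5 with quantile normalization, 6 with averaged probe sets and 11 with array weights. Without the CDH1-high arrays MDA435 kept 1 array per fraction, so its count there is not given. In U251 (4 as reported) it was 15 with array weights, 8 without the CDH1-high arrays and 7 without MDA231 and MDA435. In DU145 (2 as reported) it was 9 with array weights and 1 without marked probe sets. Array weights brought the count of members that differed between lines from 0 to 4. Without marked probe sets, the count lower was 2 both in the averaged contrast and with lines as units (SNAP25 joined VAMP1 in the averaged contrast), and 19 other tail-anchored genes rose. The count of members higher in the averaged contrast was then 19, against 24 as reported. The causes were not tested.

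Same-numbered arrays of a line did not deviate together: 4 of 18 pairs correlated above 0.1 (range -0.778 to 0.688), so the numbers were not treated as pairs. With the replicate block the counts were 2 in U251, 0 in DU145, 1 in MDA231 and 1 in MDA435, and STX7 (adjusted p = 0.0509) and STX17 (0.0645) lost their calls.

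Leaving out 1 array in turn gave 22 to 26 members higher and 1 to 1 lower, a median of 0.28 to 0.32, 34 to 34 ER genes lower and 26 to 30 other tail-anchored genes higher. Line counts were 5 to 17 in U87, 2 to 5 in U251, 9 to 16 in HT1080, 0 to 3 in DU145, 0 to 6 in MDA231 and 2 to 5 in MDA435, and 0 to 1 member differed between lines. Leaving out 1 line gave 20 to 25 higher and 1 to 1 lower with lines as units. Members that were not called turned sign as follows: STX16 to -0.0424, SNAP23 to -0.0591 and SNAP25 to -0.0203 with averaged probe sets, SNAP25 to -0.322 without marked probe sets, STX2 to -0.00821 and VTI1A to -0.0196 with array weights, and VTI1A to -0.0849 without MDA231 and MDA435. Without 1 array VTI1A ran from -0.0505 to 0.0875.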
